A study of Homo sapiens with 6 samples.

Results

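Class I olfactory receptors were examined as a set of genes that an oesophageal carcinoma line is expected not to express. They are the genes whose deposited symbol begins with OR51, OR52 or OR56, followed by a subfamily letter and a member number. The table held 52 such genes, each with 1 array row, among 19184 gene symbols in all. Their RefSeq transcript accessions matched the current annotation under the same symbol in 52 of 52 cases.

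Olfactory receptors are G protein-coupled receptors of the odour-sensing neurons of the nose, and each neuron normally uses a single receptor gene. Class I receptors, first known from fish, are grouped in mammals in 1 cluster, in humans on the short arm of chromosome 11, and many respond to carboxylic acids and other water-soluble odorants. Outside the nose most of them are silent. OR51E1 and OR51E2 are exceptions that are known from prostate tissue.

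The 6 samples came from KYSE30, an established line of human oesophageal squamous cell carcinoma, transfected with Lipofectamine 2000 for 48 h at a labelled dose of 20 nmol/ml. Samples 1, 2 and 3 received a negative control siRNA, and samples 4, 5 and 6 an siRNA directed at MTA2, which encodes a subunit of the NuRD chromatin complex. The labels name the dye Cy3 for samples 1, 3 and 5 and the dye Cy5 for samples 2, 4 and 6, so each group holds both dyes in unequal number. The protocol names a one-colour kit, so what a dye label stands for is uncertain, and a dye difference below is a difference between samples so labelled. Whether the samples of a group were separate cultures is not stated, and p-values measure only the spread between these samples. The MTA2 row read 12.92, 13.13 and 13.00 in the controls and 13.12, 13.18 and 13.52 in the samples labelled MTA2 siRNA. The signal of this row was therefore not lower in them (difference 0.26, SE 0.17, limma adjusted p = 0.942). An array row can hold nonspecific signal, so whether the amount of the targeted transcript fell was not tested. Groups are given below as labelled.

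Values are normalised log2 intensities as deposited. An array row has its own binding strength and its own nonspecific signal, so levels of different genes are a spread of row signals and not an order of transcript amounts. The brightest receptor with an entry in a table of RefSeq gene start regions was OR52W1, the dimmest was OR56B1. Their start regions are shown with those of OR51E1, a receptor known outside the nose, and of OR52L1, the receptor that differed most between dyes. Each runs from 250 bases before to 50 bases after the annotated gene start (RefSeq, GRCh38.p14), and capitals mark TATAAA or TAATTA on either strand. An annotated start need not be a transcription start. In OR52W1 the 50 bases after it begin with ATG, the letters of a start codon.
OR52W1 (chr11:6198974-6199273, plus strand): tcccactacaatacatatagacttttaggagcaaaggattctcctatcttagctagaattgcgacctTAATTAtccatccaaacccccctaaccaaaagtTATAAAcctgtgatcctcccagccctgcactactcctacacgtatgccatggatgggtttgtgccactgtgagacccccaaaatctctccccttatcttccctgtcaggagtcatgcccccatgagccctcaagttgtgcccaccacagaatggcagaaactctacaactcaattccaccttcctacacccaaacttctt
OR56B1 (chr11:5736198-5736497, plus strand): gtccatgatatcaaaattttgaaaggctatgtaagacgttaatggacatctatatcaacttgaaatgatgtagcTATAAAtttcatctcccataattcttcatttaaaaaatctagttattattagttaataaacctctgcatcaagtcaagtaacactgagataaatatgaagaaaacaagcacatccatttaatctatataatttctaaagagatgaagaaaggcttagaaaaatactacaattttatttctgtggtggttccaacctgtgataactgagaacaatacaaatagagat
OR51E1 (chr11:4643732-4644031, plus strand): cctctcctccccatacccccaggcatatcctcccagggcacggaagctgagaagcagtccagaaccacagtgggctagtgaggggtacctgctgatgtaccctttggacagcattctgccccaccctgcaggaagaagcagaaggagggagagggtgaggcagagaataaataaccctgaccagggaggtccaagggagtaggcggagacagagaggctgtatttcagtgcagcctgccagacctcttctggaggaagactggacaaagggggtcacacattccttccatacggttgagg
OR52L1 (chr11:5986936-5987235, minus strand): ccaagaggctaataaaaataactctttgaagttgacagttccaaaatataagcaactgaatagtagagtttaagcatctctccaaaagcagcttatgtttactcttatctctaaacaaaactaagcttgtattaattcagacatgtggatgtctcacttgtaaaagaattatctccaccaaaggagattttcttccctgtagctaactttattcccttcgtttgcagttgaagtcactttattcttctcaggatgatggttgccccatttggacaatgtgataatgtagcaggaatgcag

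These start regions were poor in G and C, but differed among receptors. Of the 52 receptors, 37 had an entry, with a G and C content from 28.0% to 57.0% and a median of 40.0%. The median was 37.7% in 260 class II receptors, the larger receptor class of land vertebrates, and 58.3% in all 27305 entries. The letters TATAAA, the core of a TATA box, occurred in 16 of the 37 (43.2%), in 32.7% of class II entries and in 12.0% of all entries. TAATTA, a homeodomain core, occurred in 6 (16.2%), against 23.5% of class II entries and 4.98% of all. The Olf/Ebf palindrome, named for factors of olfactory neurons, occurred in 1 (2.70%), OR56A1, in 0.385% of class II entries and in 1.20% of all entries. Both strands were searched, and the listed letters do not show a working site. Which entries begin at a transcription start was not checked, so these shares compare annotated start regions and not promoters. Receptors with TATAAA had a median signal of 11.58 and those without it 11.09. Across the 37 receptors, Pearson's r of G and C content with signal was 0.40 and Spearman's rho 0.38. This describes these rows only, since the probe sequences were not used here.

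The class I receptors were not dim. The median of their mean signals over 6 samples was 11.88, against 10.47 for all symbols, and it stood at percentile 76.7 of all symbols. Of 52 receptors, 39 (75%) lay above the median symbol, 27 above the 75th percentile of all symbols (11.76) and 12 above the 90th (13.08). Below the 25th percentile (9.38) lay 8 receptors, and below the 10th (8.41) lay 5. Their spread was as wide as that of the array: the SD between genes was 2.04 for receptors and 1.83 for all symbols. Each receptor is a single row, whereas 7421 symbols are averages of several rows, which can narrow their spread. Within single samples the SD ran from 1.93 in sample 3 to 2.56 in sample 1 for receptors, and from 1.82 to 1.99 for all symbols.

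The pattern was alike in every sample. The receptor median was 11.85, 11.82 and 11.69 in control samples 1, 2 and 3, and 11.60, 11.89 and 11.63 in samples 4, 5 and 6. Averaged over the 3 controls it was 11.79 ± 0.086 (SD, n = 3), and over samples 4, 5 and 6 it came to 11.71 ± 0.16 (SD, n = 3). The same median over all symbols was 10.47 in both groups. The share of receptors above the median symbol of their own sample ran from 71.2% to 76.9%. In all 6 samples 33 receptors lay above that median and 11 below it, and 8 changed sides. Across the 52 receptors, Spearman's rho between any pair of samples lay between 0.923 and 0.986, so the receptors kept nearly the same order in each. Pairs of the same dye gave 0.957 to 0.986 and pairs of different dyes 0.923 to 0.946. All pairs share the same rows, and the range over all symbols was 0.940 to 0.979. Over all symbols, too, pairs of the same dye were higher, with 0.957 to 0.979 against 0.940 to 0.959 for different dyes.

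**Figure D1:**
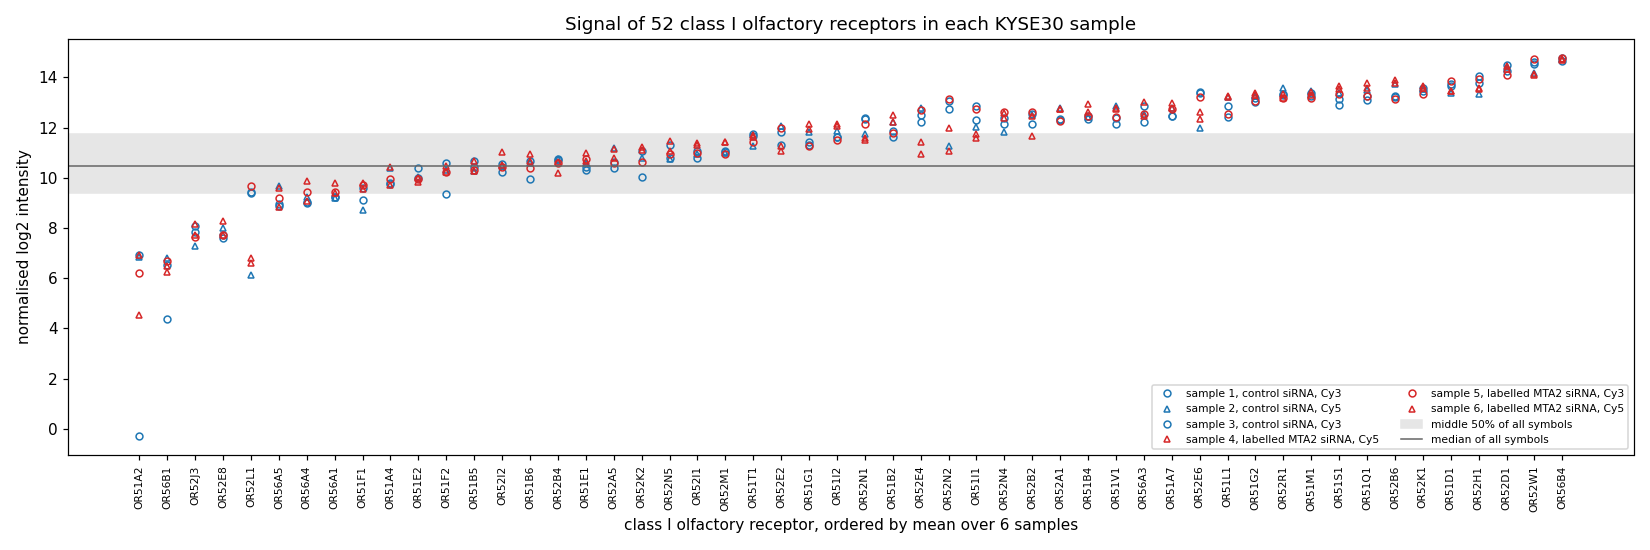
Normalised log2 intensity of the 52 class I receptors (1 position each, ordered by mean) in 6 samples, with circles for Cy3, triangles for Cy5, blue for control siRNA and red for samples labelled MTA2 siRNA. The grey band holds the middle 50% of all symbols and the line their median, 10.47; 39 of 52 receptors average above it.

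The 6 brightest receptors included the steadiest of the set. OR56B4 read 14.77, 14.72 and 14.65 in the controls and 14.72, 14.78 and 14.71 in samples 4, 5 and 6. It had the narrowest range of any receptor, 0.13, and stood at percentile 98.6 of all symbols. OR52W1 read 14.53, 14.19 and 14.60 in the controls and 14.08, 14.75 and 14.15 in the others. Its 3 Cy3 samples all lay above its 3 Cy5 samples. OR52D1, for which fatty acid esters are known odorants, averaged 14.34, with 14.09 in sample 5 as the lowest and 14.50 in sample 1 as the highest value. OR52H1 averaged 13.71, OR51D1 13.59 and OR52K1 13.52.

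The 6 dimmest receptors included the 3 with the widest range over samples, OR51A2, OR52L1 and OR56B1. OR51A2 read -0.27, 6.85 and 6.94 in the controls and 4.53, 6.21 and 6.94 in samples 4, 5 and 6. The low values belong to samples 1 and 4, and its range of 7.21 was the widest of the 52. OR56B1 read 4.39, 6.81 and 6.52 in the controls and 6.50, 6.68 and 6.24 in the others, again with sample 1 apart. Samples 1 and 4 also held the most symbols under 5, with 195 and 128 against 16 to 45 in the other samples, and the part of this tail in both receptors was not tested. Without sample 1 the mean was 6.29 for OR51A2 and 6.55 for OR56B1. OR52J3 averaged 7.79, OR52E8 7.84, OR52L1 8.01 and OR56A5 9.19. The samples of OR52L1 formed separate dye groups, described below. Across the 52 receptors the median range over 6 samples was 0.75, and over all symbols 0.72.

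OR51E1 and OR51E2, which respond to short and medium-chain fatty acids, sat near the middle of the array rather than with the brightest receptors. OR51E1 read 10.44, 10.59 and 10.30 in the controls and 10.68 and 10.73 in samples 4 and 5, with sample 6 higher still, so that its groups did not overlap. OR51E2 read 10.41, 10.02 and 10.00 in the controls and 10.01, 9.97 and 9.83 in the others, with the 2 groups overlapping. They stood at percentiles 53.9 and 39.6 of all symbols, both below the receptor median. The receptors closest to that median were OR51I2 (11.81), OR52N1 (11.95) and OR51B2 (12.04).

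Each family held both bright and dim receptors. The 22 OR51 genes ran from 5.20 to 13.59 with a median of 11.92, and 16 of them lay above the median symbol. The 24 OR52 genes ran from 7.79 to 14.38 with a median of 12.03, and 21 lay above it. The 6 OR56 genes had a lower median of 9.33, with 2 above the median symbol, yet held both OR56B4 at 14.73 and OR56B1 at 6.19. Subfamilies were as mixed. The 3 OR51A genes spanned 7.51 and the 4 OR52E genes 4.98, while the 4 OR52N genes spanned 1.26 and the 4 OR51B genes, which flank the beta-globin genes, 2.10.

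Neighbours in the cluster were nearly as unlike as receptors taken from anywhere in it. RefSeq placed all 52 receptors on chromosome 11. Between the 51 pairs of receptors adjacent in this order the median gap in signal was 1.55, and between all 1326 pairs it was 1.78. RefSeq also draws 10 receptors within the span of a longer receptor gene. OR51B5, at 10.44, spans 6 of them, which ran from 10.55 for OR51B6 to 14.34 for OR52D1. OR52N4, at 12.32, spans OR56B1 at 6.19. OR56A3, at 12.61, spans OR56A5 at 9.19, OR52L1 at 8.01 and OR56A4 at 9.28. The nested rows thus differed from the row of their host in both directions.

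**Figure D2:**
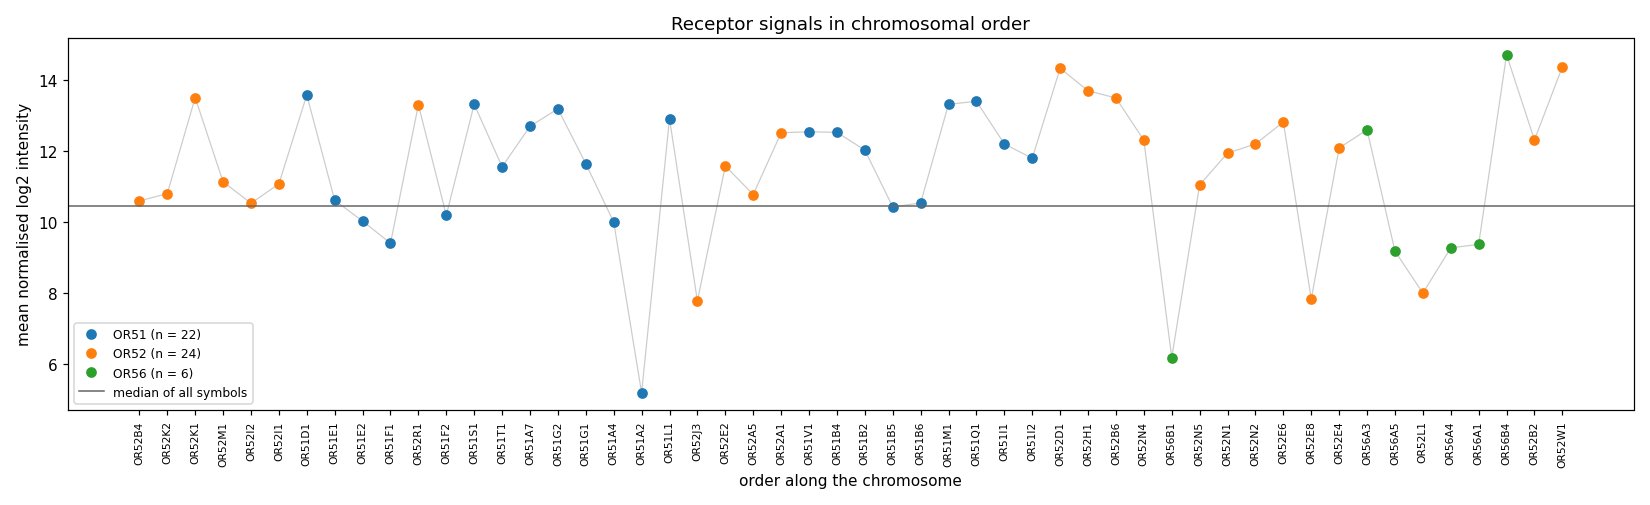
Mean normalised log2 intensity over 6 samples (vertical axis) of the 52 receptors in their order along chromosome 11 (horizontal axis), coloured by family. Bright and dim receptors stand side by side along the cluster, from OR51A2 at 5.20 to OR56B4 at 14.73, and the horizontal line is the median of all symbols, 10.47.

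Class II receptors and hair proteins, which this line should not use either, also had medians above that of all symbols, and the median of squamous genes was below that of the receptors. Class II olfactory receptors (325 genes) had a median of 11.10, with 65.5% above the median symbol. Hair keratin-associated proteins (92 genes), which harden the hair shaft, had a median of 11.40. Taste and vomeronasal receptors (28 genes) had a median of 10.35, close to that of all symbols. Among 15 other genes inside the receptor cluster, including the globins and several TRIM genes, the median was 10.51, from 7.64 for TRIM5 to 13.91 for UBQLNL. The 20 squamous epithelial genes had a median of 10.86, and 8 of them lay above the receptor median. KRT5 and KRT14, the keratins of basal squamous cells, were bright at 13.58 and 13.52, but TP63, the transcription factor that defines the lineage, read 9.48. Of 20 genes in common use as references, 11 lay above the receptor median.

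Ribosomal protein genes had the highest median of the groups compared, and their signals still overlapped with those of the receptors. Their median was 13.93 over 78 genes, 80.8% lay above the receptor median and 50% above the 95th percentile of the receptors (14.00). In any sample, 3 or 4 receptors lay above the ribosomal median of that sample. Of all symbols, 23.3% lay above the receptor median and 3.90% above the receptors' 95th percentile. These shares describe signals of rows and set no detection limit. The lists were chosen with earlier results of these data known, and no test was made between them.

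**Figure D3:**
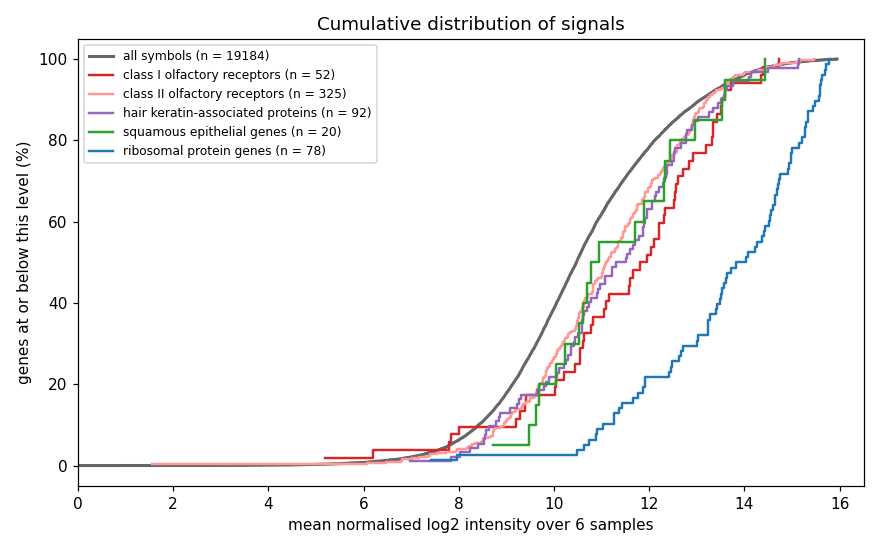
Cumulative share of genes (vertical axis, %) at or below a mean normalised log2 intensity over 6 samples (horizontal axis), for 6 groups of genes. The medians read off at 50% are 10.47 for all symbols, 10.86 for squamous genes, 11.88 for class I receptors and 13.93 for ribosomal protein genes, and the curves cross or meet at their ends.

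Genes that serve these receptors in the nose ran from among the dimmest to among the brightest of the array. Of the marker genes of mature olfactory neurons, 6 of 7 were measured, with levels from 6.18 for OMP, the olfactory marker protein, to 14.95 for GNG13, a G protein subunit also used in taste cells. CNGA4, a subunit of the olfactory cation channel, read 7.70, CNGA2 10.26 and RTP1, which carries receptors to the surface, 9.36. Of these 6, 2 lay above the median symbol, and their median was 9.88 in the controls and 9.74 in samples 4, 5 and 6. Their part in the receptor signals was not tested. Of 11 odour transduction genes, among them GNAL, ADCY3 and ANO2, 7 read higher and 4 lower in the samples labelled MTA2 siRNA, with 0 past the threshold. Of 11 measured genes of receptor transport and choice, 2 read higher and 9 lower, with 0 past the threshold and a median difference of -0.23. Over all 19184 symbols, 8723 read lower and the median difference was 0.029, and the list was not tested as a set. EBF1 and LDB1 were the 2 of the list with an unadjusted limma p under 0.05, against 3.76% of all symbols. The transcription factor EBF1 differed by -0.43 (SE 0.17) and LDB1, a cofactor of LIM-domain factors such as LHX2, by -0.61 (SE 0.23), both with limma adjusted p = 0.942. LHX2 itself differed by -0.0025 (SE 0.15).

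Between the siRNA groups, 0 of 52 receptors passed limma's adjusted p of 0.05, as did 0 of 19184 symbols (0%). At an unadjusted p under 0.05 there were 0 of 52 receptors, against 3.76% of all symbols. By direction, 35 receptors read higher and 17 lower in the samples labelled MTA2 siRNA, and the median difference was 0.12. Over all symbols, 10461 read higher and 8723 lower, with a median difference of 0.029. With dye as a block the median was 0.072 for receptors and 0.018 for all symbols. The median receptor level had the opposite sign, since it was 11.79 in the controls and 11.71 in the others. The median size of a difference, regardless of sign, was 0.22 for receptors and 0.17 for all symbols. The median SD within groups was 0.29 and 0.27, respectively. Between -1 and 1 on the log2 scale the whole 95% interval fitted for 41 of 52 receptors (78.8%) and for 78.8% of all symbols. With dye as a block 3 receptors (5.77%) had an unadjusted p under 0.05, against 4.96% of all symbols. They were OR51F1, OR52N4 and OR52L1, and the smallest limma adjusted p among receptors was 0.872. With dye as a block OR51F1 differed by 0.65 and OR52N4 by 0.50, with the same sign as without it. The difference of OR52L1 changed sign, from -0.61 without dye to 0.43 with dye as a block.

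In 3 receptors (5.77%) the groups did not overlap, a share below the 9.48% of all symbols. Of these, 2 were higher in the samples labelled MTA2 siRNA (3.85%, against 5.47% of all symbols). With 1 sample left out, the count was 5 to 20 receptors, while 14.6% to 26.4% of all symbols did not overlap. The 20 receptors came without sample 5, where the share of all symbols was 26.4%. OR51E1 had a difference of 0.36 (SE 0.17, 95% interval -0.038 to 0.76), 0.37 within Cy3 and 0.25 within Cy5, where one arm is a single sample. An exact permutation test gave p = 0.10 for OR51E1, the smallest that 3 against 3 samples allow. Groups without overlap always give this value, so the test adds nothing to the separation. OR56A1 and OR52B4 are named here because of this result. OR56A1 read 9.24, 9.18 and 9.23 in the controls and 9.41, 9.44 and 9.79 in the others, a difference of 0.33. OR52B4 read 10.72, 10.76 and 10.77 in the controls and 10.17, 10.60 and 10.61 in the others, a difference of -0.29. All 3 differences had a limma adjusted p = 0.942.

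The receptors with the smallest unadjusted p besides OR51E1 were OR51F1, OR51S1 and OR52N4. OR51F1 read 9.11, 8.73 and 9.58 in the controls and 9.80, 9.70 and 9.56 in samples 4, 5 and 6. Sample 3 overlapped with the other group, and the difference was 0.54 (SE 0.24, 95% interval -0.020 to 1.11). It was 0.34 without control sample 2, 0.35 within Cy3 and 0.95 within Cy5. OR51S1 differed by 0.38 (SE 0.19), by 0.34 within Cy3 and by 0.23 within Cy5. OR52N4 differed by 0.40 (SE 0.19), by 0.25 without control sample 2, by 0.33 within Cy3 and by 0.66 within Cy5. OR51E2 differed by -0.21 (95% interval -0.63 to 0.21), and by -0.076 without control sample 1. The widest interval was that of OR51A2, from -3.08 to 5.86, and the bright OR56B4 had one from -0.31 to 0.36.

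**Figure D4:**
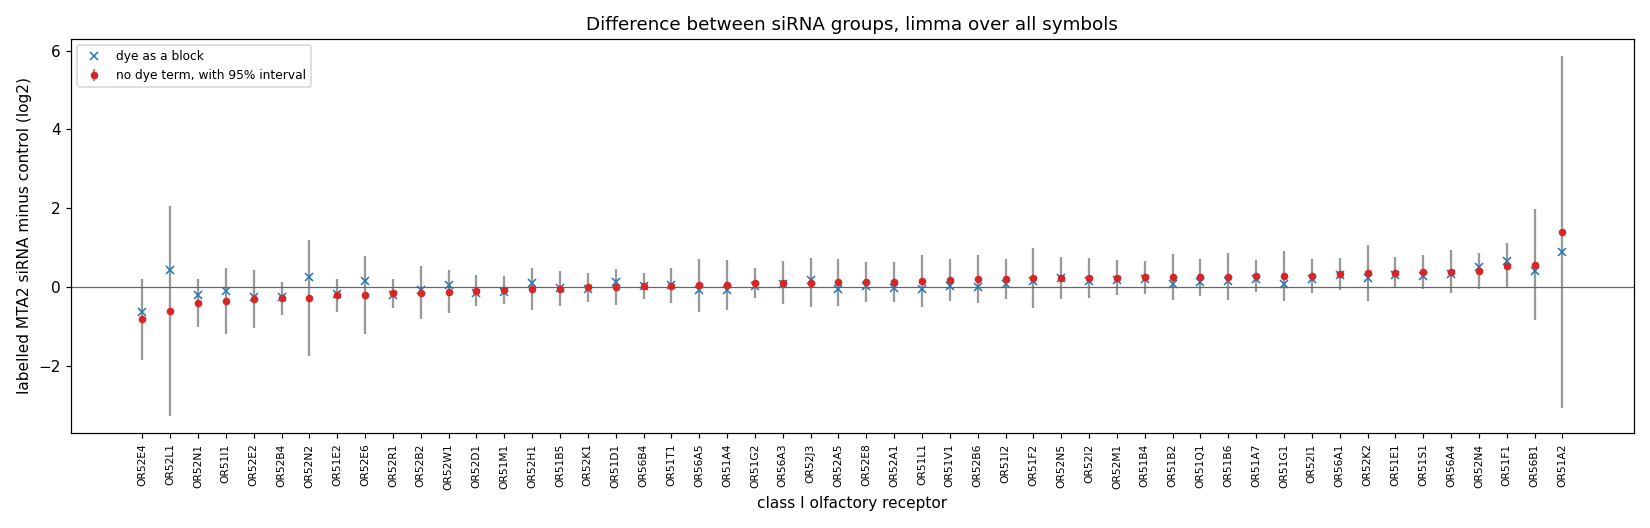
Difference between samples labelled MTA2 siRNA and control siRNA (log2, red points with 95% intervals from limma, 3 samples a group) for each of the 52 receptors, and the same difference with dye as a block (blue crosses). All 52 intervals include 0.

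Differences between the dye labels had a larger median size than those between siRNA groups, in receptors as in all symbols, though the sizes came from different fits. In 20 of 52 receptors (38.5%) the 3 Cy3 and the 3 Cy5 samples did not overlap, against 27.6% of all symbols. Cy5 was higher in 12 of these (23.1%, against 15.8% of all symbols) and lower in 8. In a limma fit with siRNA and dye as terms, 1 receptor passed the adjusted p of 0.05 for dye (1.92%, against 0.349% of all symbols). The median dye difference regardless of sign was 0.31 for receptors and 0.25 for all symbols in this fit. The siRNA sizes of 0.22 and 0.17 came from the fit without dye, and their equals with dye as a block were not computed. The sign of Cy5 minus Cy3 was the same in the control samples and in the samples labelled MTA2 siRNA for 39 receptors (75%), against 66.2% of all symbols. The sign of the siRNA difference was the same within Cy3 and within Cy5 for 27 receptors (51.9%), against 54.8%. These pairs of comparisons share no sample. No test was made of the receptors' shares against those of all symbols.

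The receptor called for dye was OR52L1. It read 9.44, 9.38 and 9.68 in the Cy3 samples 1, 3 and 5, and 6.11, 6.82 and 6.59 in the Cy5 samples 2, 4 and 6. The dyes thus stood apart in both siRNA groups. An exact permutation test between the dyes gave p = 0.10, the value that full separation of 3 against 3 samples fixes. The difference was -3.14 (SE 0.16, 95% interval -3.53 to -2.75, limma adjusted p = 0.0108), an 8.79-fold lower signal in Cy5. It was -3.30 within the controls and -2.97 within the samples labelled MTA2 siRNA. The size stayed between -3.30 and -2.97 with each sample left out, but the call was lost without sample 1, 2, 3 or 5 (limma adjusted p = 0.0663, 0.0978, 0.0882 and 0.0943, all alternatives together giving 0.00544 to 0.0978). In Cy3 it averaged 9.50 ± 0.16 (SD, n = 3) and in Cy5 6.51 ± 0.36 (SD, n = 3), both below the median symbol.

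Other receptors with lower Cy5 signals did not pass the threshold for dye. OR52N2 read 12.72, 13.06 and 13.13 in Cy3 and 11.27, 11.08 and 12.00 in Cy5, a difference of -1.61 (SE 0.28, limma adjusted p = 0.117). It was -1.63 within the controls and -1.59 within the samples labelled MTA2 siRNA. OR52E6 read 13.41, 13.37 and 13.20 in Cy3 and 12.00, 12.64 and 12.34 in Cy5, a difference of -1.05 (SE 0.21). OR52N1 differed by -0.61 (SE 0.13), with 12.40, 12.34 and 12.15 in Cy3 and 11.74, 11.58 and 11.52 in Cy5. These receptors were chosen by their p, and OR51I1 had a larger difference than OR52N1, of -0.79 (SE 0.22), also without overlap. In the OR52 family Cy5 was lower in 6 of the 9 receptors whose dyes did not overlap, and in OR51 it was higher in 9 of 11. Over all symbols, Cy5 was higher in 3035 of the 5297 without overlap. The families are small, and a difference between them was not tested. In OR56 the dyes overlapped in all 6. Of the receptors without overlap, the 12 with higher Cy5 signals differed by 0.21 for OR51G2 to 0.63 for OR51L1, and the 8 with lower Cy5 reached -3.14. Lower Cy5 signals also prevailed among the 67 symbols called for dye over the whole array, in 60 of them.

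**Figure D5:**
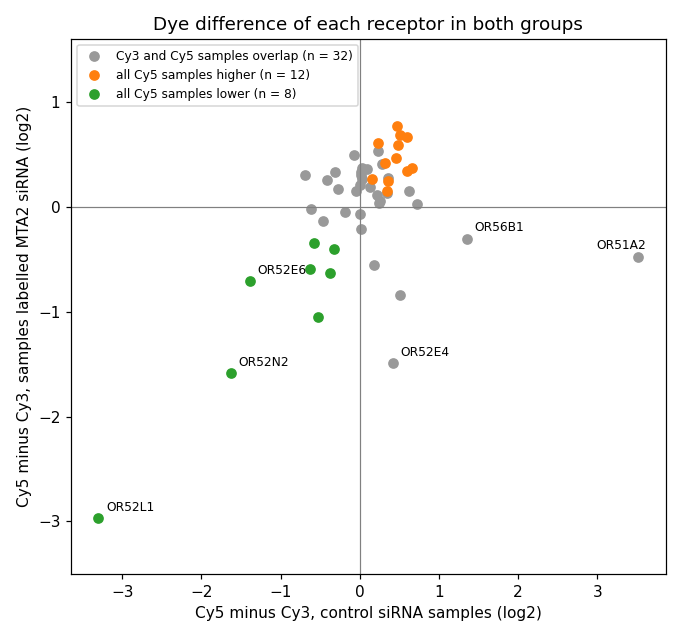
Cy5 minus Cy3 (log2) of each of the 52 receptors in the control siRNA samples (horizontal axis) and in the samples labelled MTA2 siRNA (vertical axis), coloured by whether Cy3 and Cy5 overlapped. OR52L1, at -3.30 and -2.97, and OR52N2, at -1.63 and -1.59, lie far down on both axes, and OR51A2 differs in the control samples, where sample 1 read -0.27.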

How the data were processed

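Per the labels' protocols, cDNA made from total RNA was labelled with a one-colour NimbleGen kit, hybridised and scanned with a GenePix instrument. The authors deposited 34558 rows of log2 normalised intensities; for their background correction, normalisation and genome build, the sources used here give nothing. Both deposited tables held the same values (0 differences). Column medians lay between 10.44 and 10.45. No detection call was used, and the 6 arrays limit the precision.

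Rows were averaged per deposited symbol on the log2 scale. Groups were compared with limma 3.58.1 (R 4.3.3; lmFit and eBayes, two-sided, Benjamini-Hochberg over all 19184 symbols), without covariates. Dye was fitted beside siRNA. The fit was tested on simulated data. Exact permutation tests used scipy 1.17.1, and plots matplotlib 3.10.9.

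The receptors and lists were chosen with earlier results of these data known. The naming rule took OR51E1, OR51E2, the 6 highest, the 6 lowest, the 4 smallest p for siRNA and for dye, the 3 widest ranges and the 3 nearest the median; other genes named were chosen after their values were seen. Its parts on rows per gene could not apply, since 0 receptors had several rows, and its part on protein identity was not run. Alternatives covered normalisation, a filter on dim genes, rows, naming, variance, weights, dye and each sample left out.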

Additional observations from a re-analysis of the deposited data

How the results depend on the processing

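Under every alternative run, 0 receptors passed the adjusted p for siRNA, including an adjusted p of 0.10, array weights and a trended variance. The receptor median stayed between 11.85 and 11.89, and the median of the differences of single receptors between 0.038 and 0.24. The share of receptors above the median symbol was 67.3% with the brightest row per symbol, and 71.2% to 76.9% with each sample left out. Receptors at an unadjusted p under 0.05 numbered 3 with dye as a block (4.96% of all symbols), 4 when arrays were weighted (8.41%; smallest adjusted p 0.572), 3 within Cy5 (5.59%) and 0 to 3 with a sample left out (2.04% to 7.39%). Fits within a dye were added after the data were seen; each has 1 arm of a single sample, assumed to vary like the others. Groups that did not overlap numbered 5 to 20 receptors with a sample left out (14.6% to 26.4% of all symbols), where fewer values must separate. The 20 came without sample 5 (26.4%), the only Cy3 sample of its group, and 10 without control sample 2 (23.5%), the only Cy5 control. The receptor called for dye was lost (0) among symbols above the median level, where OR52L1 is not tested, and the count was 0 to 1 with a sample left out. Over all symbols, siRNA calls numbered 4 within Cy3, against sample 5 alone, and 0 to 3 with a sample left out, and 0 of them were receptors; the cause was not tested.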
